A study of Mus musculus with 3 samples.

Results

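The comparison described here is between mouse eggs labelled Aged and eggs labelled Young, both at metaphase II, the stage at which a mature egg waits for fertilization. Of the 9126 RefSeq transcripts in the deposited table, 2186 transcripts of 1762 gene symbols reached at least 10 TPM in either of these libraries, and these are the transcripts compared. TPM is an abundance corrected for transcript length and scaled so that a whole library sums to 1000000. All oocytes were from ICR mice, were collected as immature oocytes with an intact nucleus and were matured in M16 medium for 16 to 18 h. The Young and the Aged library each pooled 20 oocytes from 4 mice, and neither was matured with stem cell secretome (hUC-MSC-sec) according to the titles and the series' design text, although the treatment field names the secretome on all samples. A library labelled Aged_sec, from Aged oocytes matured with that secretome, is quoted beside the others and enters no call. The labels do not state how old the animals were.

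Each group had 1 library, so spread between replicates is unknown, nothing was tested, and a difference is one between these libraries. The authors' table holds only transcripts at least 1.2 times as high in Aged as in Young, so the direction was fixed before any comparison. What can be described is the size of the excess and how it was spread over gene families. In pooled oocytes fewer cells and less RNA per cell cannot be told apart, and since TPM is a share of a library, a change in total RNA is not seen. The listed transcripts not compared, and everything outside the table, still count in each library's total. The transcripts outside the table, not analysed here, held 77.1% of the Young and 67.5% of the Aged library.

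A fully grown oocyte stops transcription before it resumes meiosis. From then on it lives from stored maternal mRNA, which is translated, silenced or degraded in a set order through changes of the poly(A) tail. Many of these mRNAs come from gene families that are almost specific to the oocyte and lie in tandem arrays of near-identical copies, such as the Nlrp, Obox, Oog and Fbxw genes.

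The 2186 transcripts together stood at 220657 (Young) and 309532 TPM (Aged), a summed ratio of 1.40. The median Aged over Young ratio was 1.48, with quartiles at 1.32 and 1.85 and a 90th percentile of 2.37. Ratios were small for most transcripts: 1121 (51.3%) were under 1.5. A ratio of at least 2, the size called here, was reached by 424 transcripts of 366 genes, or 19.4%. A ratio of at least 3 was reached by 108 transcripts, of at least 5 by 47 and of at least 10 by 23, and 12 of those 23 stood under 1 TPM in Young oocytes. At the limit of 10 TPM, Sec16a, at 5.59 (Young) and 10 TPM (Aged), was just inside, and Sepsecs (5.45 and 9.98 TPM) was just outside.

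**Figure D1:**
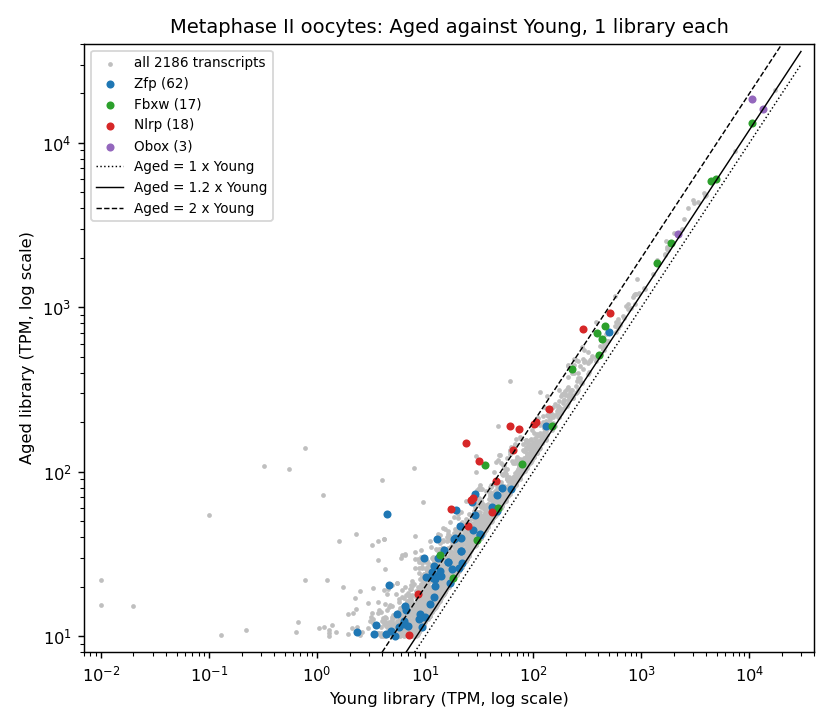
TPM in the Aged library (vertical, log scale) against the Young library (horizontal, log scale) for 2186 transcripts, 1 library each, with 4 gene families in colour and lines at ratios of 1, 1.2 and 2. All points lie on or above the line at 1.2 because the table was selected there. Of 18 Nlrp transcripts 10 lie above the line at 2, and the lowest, Nlrp2, lies at 1.39. Most Fbxw transcripts lie closer to the line at 1.2, as do Obox5 and Obox7 but not Obox2, at 1.78.

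The excess was smaller for abundant transcripts. Transcripts with a mean of both libraries of 10 to 20 TPM had a median ratio of 1.49, and 19.7% of them reached 2. From 100 to 500 TPM the median was 1.42 and 7.69% reached 2. Of the 35 transcripts at 1000 TPM or more the median was 1.30 and none reached 2. Below a mean of 10 TPM the median was 1.88 and 41% reached 2, but a transcript can enter that class only with an Aged value of 10 TPM or more, which favours high ratios. The share of any gene family at a ratio of 2 has to be read with its abundance in view. The number of reads behind a TPM value is unknown.

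**Figure D2:**
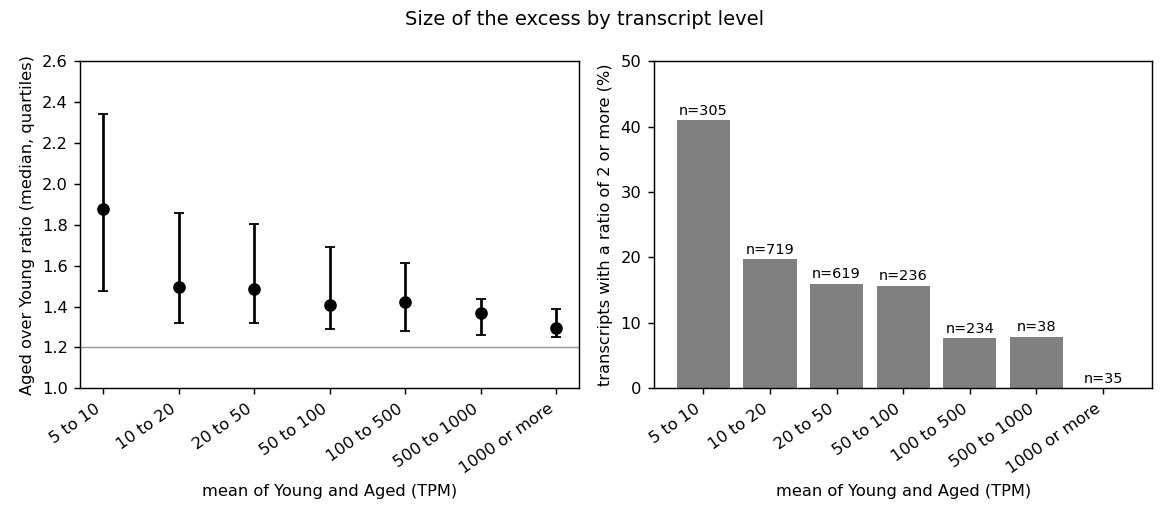
Aged over Young ratio by the mean TPM of both libraries. Left, median with quartiles as bars, and a line at 1.2; right, percentage of transcripts with a ratio of 2 or more, with the number of transcripts, 41% in the lowest class and 0 of 35 in the highest.

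Since the table holds selected transcripts, the labelled cell type could be checked on few markers. Of 19 oocyte markers, 5 were in the table and 3 among the transcripts compared. Those below the minimum were variants of Gdf9 (4.36, 6.81 and 4.46 TPM in the order Young, Aged, Aged_sec) and Ddx4 (0.34, 0.69 and 0.17 TPM). Bmp15, a growth factor secreted by the oocyte, stood at 585 (Young), 817 (Aged) and 799 TPM (Aged_sec). Of the 16 granulosa or cumulus cell markers 3 were in the table, summing to 2.13 (Young), 4.77 (Aged) and 3.25 TPM (Aged_sec). The 4 listed of 8 theca or stroma markers summed to 2.38, 4.42 and 3.38 TPM, and Pecam1, the listed 1 of 8 blood or vessel markers, stood at 1.77, 4.31 and 2.59 TPM. These sums were higher in the Aged library, as the selection of the table requires, and no such marker was among the transcripts compared. The levels of the unlisted markers are not known from this table. Their part in the results was not tested.

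In absolute terms much of the excess lay in few, very abundant transcripts with small ratios, which also held much of the TPM in both libraries. The 35 transcripts with a mean of 1000 TPM or more summed to 124113 (Young) and 163857 TPM (Aged). All 2186 summed to 220657 and 309532 TPM, so those 35 made up a smaller part of the Aged than of the Young sum. The summed difference, Aged minus Young, was 88875 TPM. Obox2, an oocyte-specific homeobox gene, held 9.16% of it: it stood at 10491 (Young), 18633 (Aged) and 20323 TPM (Aged_sec), an Aged over Young ratio of 1.78. The 15 transcripts with the largest differences held 34%, and 48 transcripts held 50% of it. None of those 15 reached a ratio of 2, and their ratios ran from 1.2 to 1.78. The 424 transcripts at a ratio of 2 or more held 13.7% of the difference.

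Several of those 15 code for housekeeping complexes rather than egg proteins. Mphosph6, an M-phase phosphoprotein of the RNA exosome, was the most abundant transcript in the comparison at 17289 (Young) and 20931 TPM (Aged). Snrpe and Snrpg, Sm proteins of the spliceosome core, stood at 3083 and 4309 TPM and at 3802 and 4931 TPM. Dpy30, a core subunit of histone H3 lysine methyltransferases, stood at 3932 (Young) and 4831 TPM (Aged). Ggct, an enzyme of glutathione turnover, stood at 3365 and 4377 TPM. The others in this group of 15 were Fbxw, Oog, Rfpl4, Tcl1b and Obox transcripts, Cks2 and a variant of the polycystin-like gene Pkd2l2 (1688 and 2549 TPM).

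**Figure D3:**
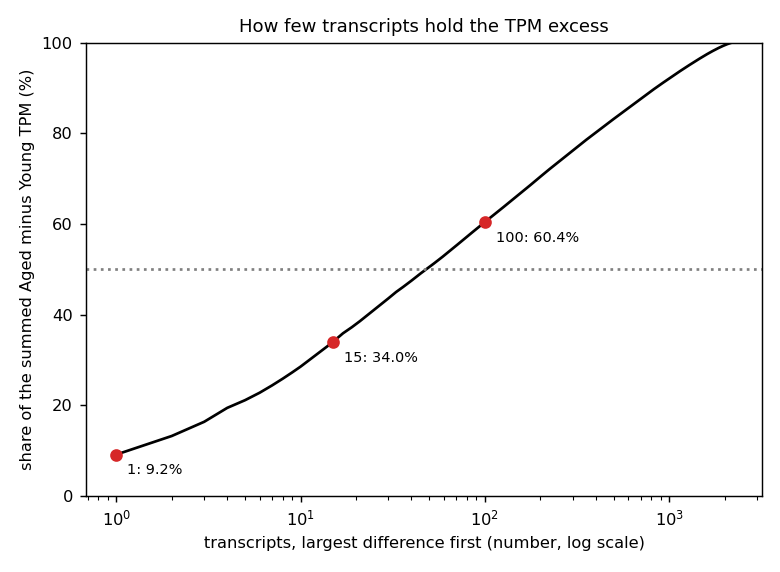
Share of the summed Aged minus Young difference (vertical, %) held by the transcripts with the largest differences, ordered along a log axis by rank. The leading transcript holds 9.16%, the leading 15 hold 34% and the leading 100 hold 60.4%; the dotted line marks 50%.

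Gene families were compared by the median ratio of their transcripts and the share at a ratio of 2 or more, beside a median of 1.48 and a share of 19.4% over all 2186. There were 36 lists with at least 3 transcripts, and a gene can be in several. Family medians ran from 1.27 for Obox genes to 2.09 for Nlrp genes. In 10 lists the share at a ratio of 2 was at or above 19.4%, in 26 it was below, and in 5 no transcript reached 2. Together the lists held 739 of the transcripts, of which 16.9% reached 2, against 20.7% of the 1447 in no list. By genes, with the TPM of all listed transcripts of a symbol added, 346 of 1901 genes reached a ratio of 2, or 18.2%. Transcripts outside the table are missing from these and all later sums by gene.

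**Figure D4:**
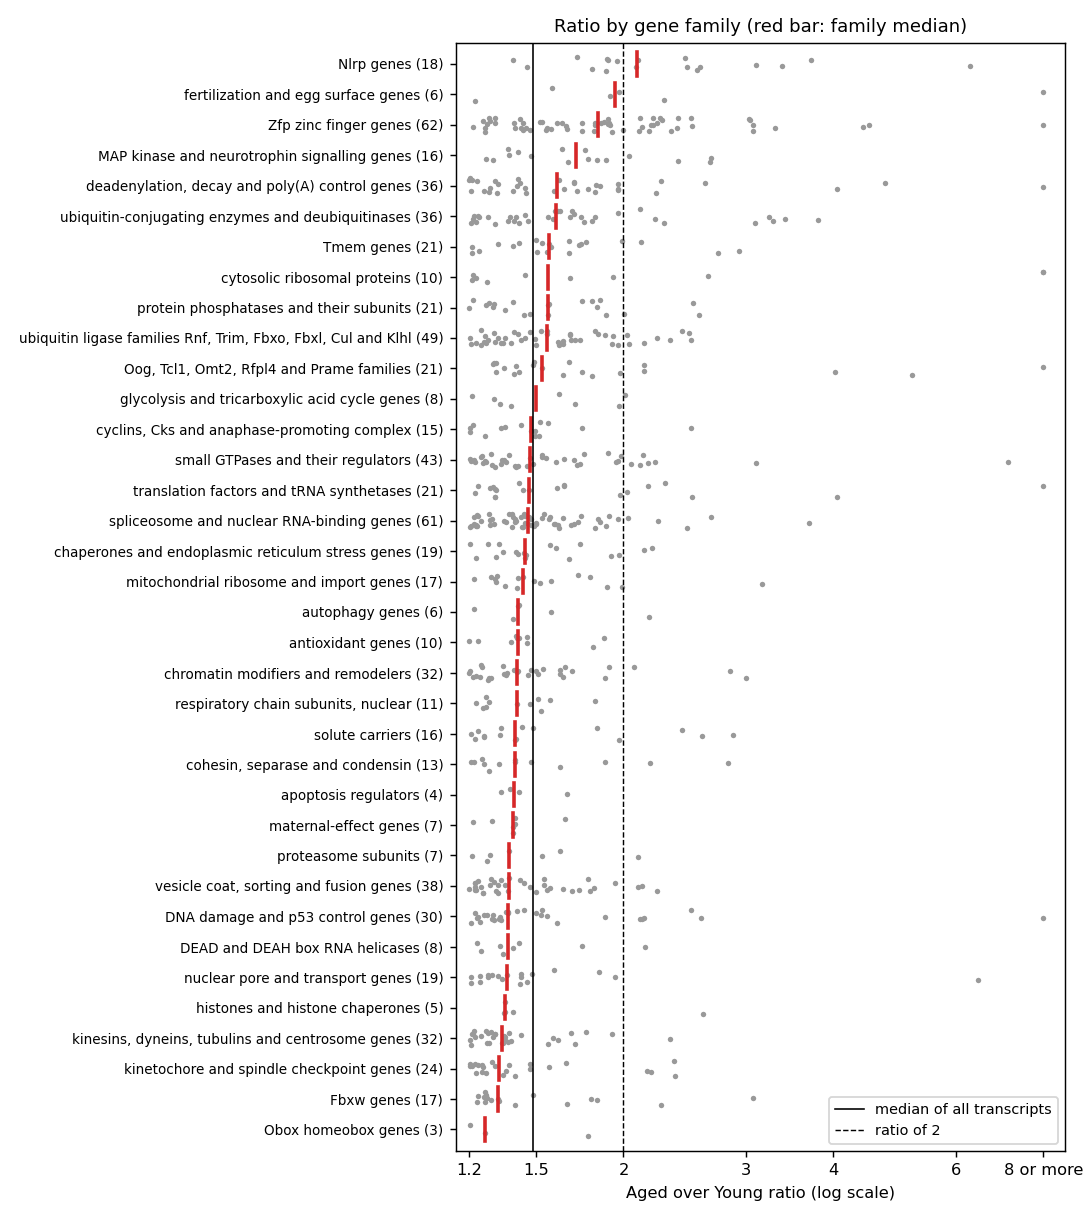
Aged over Young ratio (log axis, values above 8 drawn at 8) of each transcript in 36 gene families, ordered by family median (red bars), with the number of transcripts in brackets. Nlrp genes have the highest median, 2.09, and Obox genes the lowest, 1.27; lines mark the median of all transcripts and a ratio of 2.

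The Nlrp genes had the highest median ratio and share at 2 of the 36 lists at the minimum of 10 TPM. With no minimum the fertilization and egg surface list was higher, with a median of 2.24 and 60% at 2 or more against 2.10 and 57.1%. In TPM the 3 Obox transcripts had a larger summed difference, 11450 against 1893 TPM. Nlrp genes code for NACHT and leucine-rich repeat proteins, several of which are stored in the oocyte and needed for early cleavage. Of 18 Nlrp transcripts from 10 genes, 10 had a ratio of 2 or more, which is 55.6% against 19.4% of all transcripts. Their median ratio was 2.09 and their range 1.39 to 6.27. With transcripts added by gene, 7 of 10 Nlrp genes had a ratio of at least 2. Of 8 Nlrp transcripts with a mean of 100 TPM or more, 4 reached 2 (50%), against 6.84% of all 307 transcripts at that level. From 20 to 100 TPM, 5 of 8 did (62.5%), against 15.9%. The 4 at 100 TPM or more were Nlrp4f, an Nlrp9a mRNA just inside that class and 2 entries of the single gene Nlrp4g on a later annotated copy. Nlrp14, the most abundant, had a ratio of 1.80.

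Nlrp4f, the only Nlrp gene here besides Nlrp2 with a single annotated mRNA, stood at 288 (Young), 742 (Aged) and 650 TPM (Aged_sec), a ratio of 2.57. Its Aged_sec value lay nearer to Aged than to Young. Nlrp14, the most abundant Nlrp transcript in Aged oocytes, stood at 516, 931 and 867 TPM in the same order. Nlrp2, a maternal-effect gene, had the smallest ratio of the family at 41.3, 57.3 and 52.6 TPM.

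The Nlrp4 and Nlrp9 genes are tandem paralogs, and several of their annotated mRNAs differed in size of excess. Of Nlrp4a, a predicted variant stood at 24.0 (Young) and 151 TPM (Aged), a ratio of 6.27, and the curated mRNA at 141 and 242 TPM, a ratio of 1.71. Of Nlrp9b, 4 variants had ratios from 1.46 to 3.71, and the one with the highest ratio stood at 31.5 and 117 TPM. Both Nlrp9a mRNAs reached 2, at 26.3 and 67.0 TPM and at 64.9 and 135 TPM. The 3 entries of Nlrp4g, 2 of them on a later annotated copy, had ratios of 1.89, 2.45 and 3.10. Nlrp4e stood at 102 and 194 TPM and Nlrp9c at 8.57 and 18.0 TPM. Near-identical copies compete for the same reads, which leaves values of single Nlrp4 and Nlrp9 entries uncertain.

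**Figure D5:**
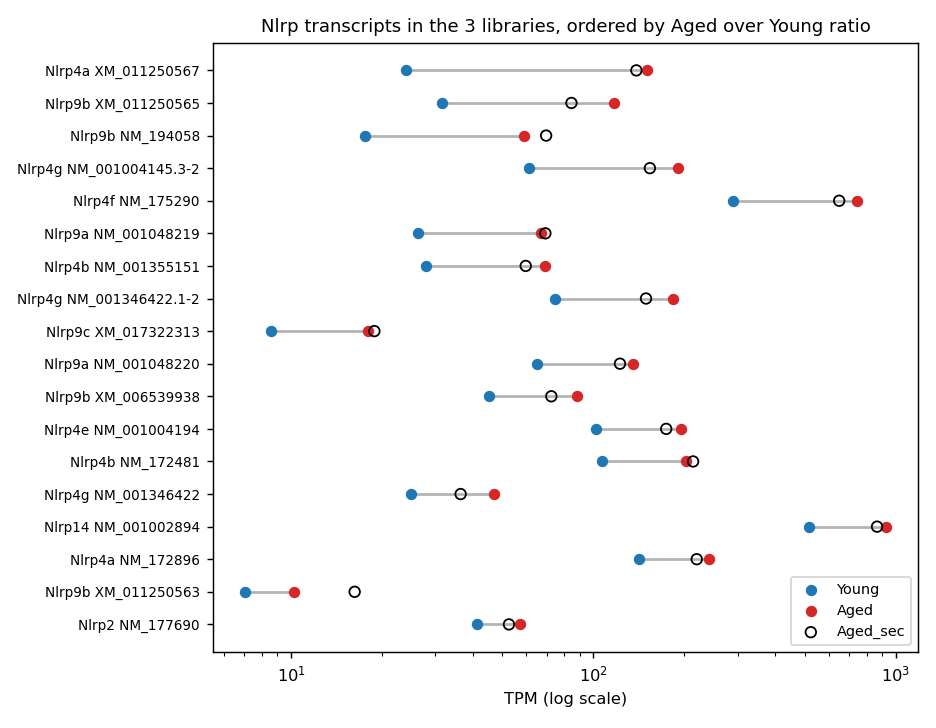
TPM (log axis) of 18 Nlrp transcripts in the Young (blue), Aged (red) and Aged_sec (open black) libraries, 1 library each, ordered by Aged over Young ratio. Ratios run from 1.39 for Nlrp2 at the bottom to 6.27 for a predicted Nlrp4a variant at the top.

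The promoters of Nlrp4f and Nlrp9a, from the family with the highest median ratio, and of Obox2, the transcript with the largest TPM difference, are shown to give the sequence that lies upstream of these egg genes. They are the 250 bases before the start site in RefSeq annotation of GRCm38.p6. No build is named for the deposited table. Nlrp4f is at chr13:65205717-65205966 on the minus strand, Nlrp9a at chr7:26534773-26535022 on the plus strand and Obox2 at chr7:15388601-15388850 on the plus strand. Capitals mark each match, on either strand, to TAATTG, the core of the element bound by the oocyte homeobox protein NOBOX, to CANNTG, the E-box, or to TATAAA.
Nlrp4f: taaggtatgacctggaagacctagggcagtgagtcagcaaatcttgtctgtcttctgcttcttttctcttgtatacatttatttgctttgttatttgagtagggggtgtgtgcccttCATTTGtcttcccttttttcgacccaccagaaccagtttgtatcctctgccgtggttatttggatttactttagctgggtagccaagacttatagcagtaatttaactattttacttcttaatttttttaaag
Nlrp9a: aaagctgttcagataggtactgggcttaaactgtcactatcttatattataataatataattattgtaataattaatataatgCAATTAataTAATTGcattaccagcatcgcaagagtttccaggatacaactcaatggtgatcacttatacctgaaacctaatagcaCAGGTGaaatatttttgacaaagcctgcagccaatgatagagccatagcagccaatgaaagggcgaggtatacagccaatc
Obox2: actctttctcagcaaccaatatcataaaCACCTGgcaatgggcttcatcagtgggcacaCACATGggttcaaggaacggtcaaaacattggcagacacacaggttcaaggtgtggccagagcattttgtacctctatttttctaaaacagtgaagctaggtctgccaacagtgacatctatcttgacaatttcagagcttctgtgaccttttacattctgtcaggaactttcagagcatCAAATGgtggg
The Nlrp4f window held 1 E-box, the Nlrp9a window 1 E-box and 2 TAATTG matches, and the Obox2 window 3 E-boxes. Promoters were matched by symbol for 8 of the 10 Nlrp genes, which have 10 promoters, and 2 of these (20%) held TAATTG against 7.17% of all 32851 promoters of the same length. An E-box was found in 8 of those 10, or 80%, against 66.2% of all promoters. Promoters of genes with a transcript at a ratio of 2 or more did not stand apart from those of the other genes compared: TAATTG was in 5.10% against 5% and CANNTG in 56.1% against 55.8%. TATAAA was found in 7.52% and 6.03% of them. A match is a description of the sequence and not evidence that a factor binds.

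The Obox genes and the most abundant Fbxw genes had ratios below the Nlrp median of 2.09, at far higher levels. The Obox2 ratio of 1.78 was still above the median of 1.48 over all transcripts. Of 17 Fbxw transcripts, which code for F-box proteins with WD repeats, 2 reached 2 (11.8%), both from Fbxw27, and the median ratio was 1.32. The predicted Fbxw27 variant stood at 35.8 (Young) and 110 TPM (Aged). Fbxw28, the most abundant, stood at 10469 (Young) and 13254 TPM (Aged). Fbxw24 stood at 4435 and 5859 TPM, Fbxw14 at 4866 and 6006 TPM and Fbxw20 at 389 and 699 TPM. Ratios thus ran from 1.23 for Fbxw14 to 3.06 within 1 family. All 3 Obox transcripts were below 2: besides Obox2, Obox5 stood at 13442 and 16166 TPM and Obox7 at 2195 and 2778 TPM.

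Among the 21 Oog, Tcl1, Omt2, Rfpl4 and Prame family transcripts, 5 reached 2 (23.8%), and the median ratio was 1.53. All 5 were entries of Oog2 and Oog4, oocyte genes related to PRAME. With transcripts added by gene, 2 of 14 genes on this list reached 2 (14.3%), against 18.2% of all genes. The curated Oog2 mRNA stood at 3.64 (Young), 37.8 (Aged) and 43.0 TPM (Aged_sec), while its later annotated copy, which was higher, stood at 87, 152 and 150 TPM. Both entries of Oog4 carried the same values, 67.6, 145 and 136 TPM. Oog3 stood at 2691, 4011 and 3866 TPM, and Oog1 at 913, 1496 and 1606 TPM. Rfpl4, which codes for a RING finger protein of the oocyte, stood at 3024, 4485 and 4098 TPM, and Tcl1b3 at 2469, 3438 and 3213 TPM. Genes with provisional symbols next to Oog2 and Oog3 in the RefSeq order also had large ratios. The list goes by symbol and does not hold them, so its shares leave them out. Gm13084, for which 4 transcripts were compared, had ratios from 2.63 to 178, and its most abundant transcript in Aged oocytes stood at 61.2 (Young) and 356 TPM (Aged). Gm13023 stood at 576, 1173 and 1191 TPM, and C87977 at 47.5, 190 and 177 TPM. These genes were chosen after their values were seen.

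That array was the run of neighbours with the most genes at a ratio of 2. Genes were placed in RefSeq order, and a neighbour was a compared gene within 5 protein-coding genes. In the Oog and Prame array 6 of 10 compared genes had a transcript at 2 or more. Over all compared genes 366 of 1762 did. In the run that holds the Xlr genes, germline and X-linked lymphocyte-regulated genes, 5 of 11 compared genes did. They were Xlr5c (9.09 and 33.5 TPM), Xlr5a, Xlr4a through a later annotated copy alone, and the non-Xlr genes Magea10 (10.1 and 25.6 TPM) and Gabra3. The neighbours Nlrp9c, Nlrp4a and Nlrp9a all did. These runs were picked with their values known. Among all genes that had a compared neighbour the pattern was weak. Of 247 such genes at 2 or more, 95 had a neighbour that was too (38.5%), against 284 of 886 others (32.1%).

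Maternal-effect and egg surface genes outside these arrays were few in the comparison. Of 46 annotated genes on the maternal-effect list, 7 had a transcript compared, with a median ratio of 1.39 and none at 2. Sohlh2, an oocyte transcription factor, stood at 7.41 (Young) and 10.4 TPM (Aged). Kit, the receptor for the growth signal from granulosa cells, stood at 19.0 and 23.2 TPM. Of 6 fertilization and egg surface transcripts 2 reached 2 (33.3%). They were predicted variants of Atp2b1, a plasma membrane calcium pump (1.23 (Young), 21.8 (Aged) and 0.30 TPM (Aged_sec)), and of Trpm7, a channel for calcium and magnesium (5.02, 11.5 and 8.23 TPM). Slc39a10, a zinc importer of the oocyte, was just below at 108, 213 and 188 TPM, a ratio of 1.97.

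Cell cycle and spindle genes had ratios at or below those of all transcripts. Of 15 transcripts of cyclins, Cks proteins and the anaphase-promoting complex, 1 reached 2 (6.67%), and the median was 1.48. It was a variant of Arpp19, which codes for the phosphatase inhibitor activated by Greatwall kinase, at 6.07 (Young), 15.2 (Aged) and 6 TPM (Aged_sec). The more abundant Arpp19 variant stood at 46.6, 56.1 and 52.2 TPM. Mastl, the Greatwall kinase itself, stood at 65.3, 114 and 109 TPM, a ratio of 1.74. Ccnb1, the cyclin of M-phase kinase, stood at 1643, 2083 and 1754 TPM, and Wee2, the oocyte kinase that inhibits it, at 250, 333 and 273 TPM. Cks2, a small kinase subunit, stood at 7430, 8942 and 11674 TPM. The inhibitor of the anaphase-promoting complex Fbxo5 stood at 91.95, 137 and 140 TPM, and its meiotic relative Fbxo43 at 9.97, 14.2 and 8.98 TPM.

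Of 13 cohesin, separase and condensin transcripts 2 reached 2 (15.4%), with a median of 1.40. The separase Espl1 stood at 3.68 (Young), 10.4 (Aged) and 6.51 TPM (Aged_sec). Cdca5, sororin, which holds cohesin on chromosomes, stood at 51.3, 96.5 and 75.6 TPM, a ratio of 1.88. Ncapg, a condensin subunit, stood at 170, 250 and 151 TPM, so that its Aged_sec value was below the Young one. Sgo1, shugoshin, the protector of centromeric cohesin, stood at 21.7, 26.5 and 25.1 TPM. Meiotic cohesin subunits such as Rec8 and Smc1b had no transcript among those compared.

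Kinetochore and checkpoint transcripts, 24 in number, had a median of 1.33, with 4 at 2 or more (16.7%). Cenpo, an inner kinetochore protein, stood at 19.0 (Young), 45.0 (Aged) and 35.4 TPM (Aged_sec). Ttk, the checkpoint kinase MPS1, had variants at 9.97, 21.8 and 8.95 TPM and at 8.76, 18.9 and 32.4 TPM, which are alike in Aged oocytes and not in Aged_sec. Nuf2, of the microtubule-binding NDC80 complex, stood at 135, 223 and 206 TPM, while Ndc80 stood at 130, 157 and 156 TPM. Aurkc, the meiotic Aurora kinase, was the most abundant at 715 TPM in Aged oocytes. Bub3 stood at 65.8, 86.1 and 52.7 TPM, and Mad2l1 at 10.4, 12.7 and 11.6 TPM. Kinesins, dyneins, tubulins and centrosome genes had the lowest share of the larger lists, 1 of 32 (3.12%), with a median of 1.34. That transcript was a variant of Tacc3, a spindle protein, at 13.1, 30.5 and 18.5 TPM. The most abundant, a Kif23 variant, stood at 213, 276 and 211 TPM.

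Genes that control the poly(A) tail and mRNA decay had a median ratio of 1.60 over 36 transcripts, and 6 reached 2 (16.7%, against 19.4% of all). The median of this list was above that of all transcripts in 9 of 11 alternatives to the processing. It was below with 1 transcript per gene (1.43 against 1.46) and with curated accessions only (1.41 against 1.44). Igf2bp3, an RNA-binding protein that stabilises mRNA, stood at 1.05 (Young), 11.3 (Aged) and 6.42 TPM (Aged_sec) through a predicted variant. Ythdf3, a reader of methylated mRNA, stood at 14.8, 38.6 and 31.4 TPM. Papolg, a poly(A) polymerase, stood at 13.2, 29.4 and 28.5 TPM. Eif4enif1, which represses capped mRNA, had a variant at 3.06 and 12.4 TPM and a more abundant one at 37.2 and 61.1 TPM. Cpeb4, a poly(A)-regulating protein, stood at 4.52 and 10.2 TPM, and Cpeb1, its relative that starts tail extension in meiosis, at 8.6 and 11.3 TPM. Dcp1a, a decapping activator, stood at 55.0 and 100.2 TPM. Pan3, of the first deadenylase complex, had 5 variants compared, at ratios from 1.41 to 1.96. Cnot9 stood at 95 and 122 TPM, and Ybx1, an mRNA packaging protein, at 60.7 and 73.0 TPM with a ratio of 1.2.

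Splicing genes were numerous and had small ratios. Of 61 spliceosome and nuclear RNA-binding transcripts 5 reached 2 (8.2%), and the median was 1.46. Srsf3, a splicing activator, reached 3.69 through a later annotated copy at 7.98 (Young) and 29.4 TPM (Aged). Srrm1, a scaffold of the spliceosome, had 7 variants compared with ratios from 1.22 to 2.67. Clk1, a kinase of splicing factors, stood at 352 and 504 TPM, and Rbm18 at 481 and 704 TPM. Translation factors and tRNA synthetases had 6 of 21 transcripts at 2 or more (28.6%), with a median of 1.47. These included later annotated copies of Farsb, at 0.55 (Young) and 104 TPM (Aged), and of Eif5a, at 31.5 and 78.8 TPM. With later copies left out, 4 of 17 reached 2 (23.5%), against 19.1% of all. Iars, isoleucyl-tRNA synthetase, stood at 16.9 (Young), 38.7 (Aged) and 32.4 TPM (Aged_sec). Eef1a1, the elongation factor that brings tRNA to the ribosome, stood at 20.7, 41.9 and 39.0 TPM. The most abundant, Eif5, stood at 232, 284 and 254 TPM.

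Cytosolic ribosomal proteins had 3 of 10 transcripts at 2 or more (30%), and 2 of these 3 were entries of Rps28 with the same values, 4.13 (Young), 39.0 (Aged) and 45.7 TPM (Aged_sec). The third was Rpl7a at 47.8, 127 and 120 TPM. Rpl23a stood at 42.6, 71.4 and 77.7 TPM, and Rplp0 at 50.3, 61.3 and 46.9 TPM. Ribosomal protein genes have many processed copies in the genome, so their reads may be shared. Only 9 of 84 annotated genes on this list had a transcript compared. RNA helicases had 1 of 8 (12.5%), Ddx25, a germ cell helicase, at 4.86 and 10.4 TPM.

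The Zfp zinc finger genes, mostly DNA-binding repressors in clusters of related copies, had the second highest share at a ratio of 2 among the 36 lists. Of 62 Zfp transcripts from 49 genes, 23 had a ratio of 2 or more, or 37.1% against 19.4%, and the median ratio was 1.84. By gene 20 of 56 reached 2. Zfp transcripts were of low abundance, with a median of 12.8 TPM in Young oocytes, and lower transcripts had larger ratios in general. The share by abundance was as follows: from a mean of 10 to 20 TPM 33.3% of 21 Zfp transcripts reached 2, against 19.7% of all, and from 20 to 100 TPM 37% of 27 did, against 15.9%. At 100 TPM or more 0 of 2 did, against 6.84%. These shares are descriptions of 1 library against another.

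Zfp979 had the largest ratio of the family, at 4.46 (Young), 55.6 (Aged) and 51.3 TPM (Aged_sec). Zfp951 stood at 4.62, 20.4 and 22.7 TPM, and its predicted variant at 21.2, 46.5 and 36.8 TPM. Zfp960 stood at 19.2, 58.3 and 40.8 TPM. Zfp932 stood at 29.1, 73.0 and 65.9 TPM, the highest Aged level among those at 2 or more. In all of these transcripts the Aged_sec value lay above the Young one. Zfp706, the most abundant Zfp transcript, had a small ratio at 497, 709 and 620 TPM. Neighbouring Zfp genes were seen together: Zfp979 and Zfp993 (6.52 and 15.3 TPM) lie in 1 run, and Zfp433 (10.2 and 23 TPM) and Zfp873 (27.3 and 65.2 TPM) in another.

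Chromatin modifiers had 3 of 32 transcripts at 2 or more (9.38%), with a median of 1.41. Of these 3, 2 were variants of Crebbp, a histone acetyltransferase, at 8.70 (Young), 26.1 (Aged) and 12.9 TPM (Aged_sec) and at 3.66, 10.4 and 14.8 TPM. Both variants were about 3 times the Young level in Aged oocytes, and they differed in order in Aged_sec. The third was Phf6 at 28, 58.1 and 49.9 TPM. Rnf2, the ligase of Polycomb complex 1, stood at 36.3, 59.3 and 61.9 TPM, and Kdm6a, a histone demethylase, at 36.4, 48.9 and 52.4 TPM. Npm1, nucleophosmin, the most abundant of 5 histone and chaperone transcripts, stood at 894, 1209 and 1238 TPM.

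DNA damage genes had 6 of 30 transcripts at 2 or more (20%), close to 19.4%, with a median of 1.37. A predicted variant of Polb, the polymerase of base excision repair, stood at 210 (Young), 444 (Aged) and 472 TPM (Aged_sec), the highest level among the 6. Mdm4, an inhibitor of p53, had 3 mRNAs compared, at 47.3, 118 and 91.2 TPM, at 238, 448 and 367 TPM and at 91.1, 142 and 128 TPM. Their ratios were 2.50, 1.88 and 1.55, all at or above the median of all transcripts. Its partner Mdm2 had mRNAs at 28.9, 43.2 and 41.3 TPM and at 25.7, 32.5 and 24.5 TPM, the latter with Aged_sec below Young. Ercc6l, a helicase of ultrafine anaphase bridges with a single annotated mRNA, stood at 13.0, 33.5 and 29.1 TPM. Chek1 was the most abundant of the list at 448, 597 and 623 TPM.

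Genes of protein turnover were near the level of all transcripts. Ubiquitin-conjugating enzymes and deubiquitinases had 8 of 36 transcripts at 2 or more (22.2%), with a median of 1.60. Usp46, a deubiquitinase, stood at 29.3 (Young), 99.9 (Aged) and 74.1 TPM (Aged_sec), while its other variant stood at 54.4, 75.7 and 68.9 TPM. Ube2w stood at 30.8, 68.4 and 72.3 TPM. Usp15 was the most abundant at 208, 376 and 288 TPM. The ubiquitin ligase families had 8 of 49 (16.3%), with a median of 1.55. Cul1, the scaffold of SCF ligases, stood at 319, 536 and 496 TPM, and Fbxo11, one of their substrate receptors, at 10.1, 22.5 and 35.1 TPM. Of 7 proteasome transcripts 1 reached 2 (14.3%), Psme4, the PA200 activator, at 20.7, 43.5 and 40.9 TPM. A variant of Atg5, needed for autophagosome formation, stood at 133, 290 and 201 TPM, the 1 of 6 autophagy transcripts at 2 or more. Chaperones had 2 of 19 (10.5%), among them a variant of the membrane chaperone gene Dnajb14 at 28.7, 61.4 and 67.3 TPM, and Cct8, of the chaperonin ring, stood at 135, 181 and 160 TPM.

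Of 16 MAP kinase and neurotrophin transcripts 4 reached 2 (25%, against 19.4% of all), and the median was 1.71. The share was above that of all transcripts in 8 of 10 alternatives to the processing. It was below with no minimum (31.7% against 37.3%) and at a minimum of 1 TPM (15.8% against 30.5%), as was the median. Those at 2 or more were Rps6ka6, a kinase of the RSK family (6.69 in Young, 17.8 in Aged and 16.1 TPM in Aged_sec), Map2k4 (10.4, 25 and 19.2 TPM) and its target Mapk8, which codes for JNK1 (23.2, 47.1 and 41.3 TPM), besides a variant of the feedback inhibitor Spred2. Protein phosphatases had 3 of 21 (14.3%), with a median of 1.56. Of Ptp4a1, a predicted variant stood at 4.94 and 12.7 TPM and the main mRNA at 233 and 280 TPM. Ppp2ca, a catalytic subunit of protein phosphatase 2A, stood at 5.68 and 11.4 TPM.

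Small GTPases and their regulators had 7 of 43 transcripts at 2 or more (16.3%), with a median of 1.47. Rhot1, a GTPase of mitochondrial transport, stood at 11.3 (Young), 35 (Aged) and 30 TPM (Aged_sec) through one variant, and at 10.6, 13.7 and 10.7 TPM through another. Rab33b, a Golgi GTPase with a single annotated mRNA, stood at 63.8, 135 and 154 TPM. Cdc42, which polarises the cortex of the oocyte, stood at 127, 247 and 260 TPM, a ratio of 1.95. The last 2 were higher still in Aged_sec oocytes. Of 16 solute carrier transcripts 3 reached 2 (18.8%), with a median of 1.40. Slc7a11, the cystine importer that feeds glutathione synthesis, stood at 14.7, 38.1 and 29.6 TPM, and its partner chain Slc3a2 at 52.1, 73.0 and 49.9 TPM and, in a second variant, at 197, 249 and 161 TPM.

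Transport genes had small ratios. Vesicle coat, sorting and fusion genes had 3 of 38 transcripts at 2 or more (7.89%), with a median of 1.37. Copz1, a coat subunit, stood at 29.9 (Young), 63.6 (Aged) and 52.5 TPM (Aged_sec), and Snx6, a sorting nexin, at 105, 205 and 215 TPM with a ratio of 1.95. Trappc2, the most abundant, stood at 486, 625 and 707 TPM. Nuclear pore and transport genes had 1 of 19 (5.26%), a variant of Nup98 at 2.16, 13.9 and 11.3 TPM. Kpna7, the importin alpha of the oocyte, had 2 mRNAs of like values, at 81.8, 121 and 84.1 TPM and at 81.9, 119 and 79.8 TPM. Tmem genes, a group by name only, had 3 of 21 (14.3%) and a median of 1.56.

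Mitochondrial and redox genes had few transcripts at a ratio of 2. Mitochondrial ribosome and import genes had 1 of 17 (5.88%), with a median of 1.44. It was a later annotated copy of Mrpl40 at 35.3 (Young), 111 (Aged) and 57.8 TPM (Aged_sec). Timm23, the channel of the inner membrane, stood at 681, 891 and 583 TPM. Of 11 nuclear respiratory chain transcripts none reached 2, and the median was 1.40. Cox5a had the largest ratio, 1.82, at 173, 315 and 276 TPM, and Cox6b2 the highest level, at 611, 752 and 962 TPM. Antioxidant genes had none of 10, with a median of 1.41. G6pdx, which supplies NADPH, stood at 34.5, 62.4 and 53.5 TPM, and Sod2, the mitochondrial superoxide dismutase, at 12.7, 17.5 and 10.6 TPM. Of 8 glycolysis and tricarboxylic acid cycle transcripts Gapdh alone reached 2, at 24.1, 48.4 and 31.5 TPM, a ratio of 2.01. Cs, citrate synthase, stood at 15.3, 30.2 and 40.3 TPM. None of 4 apoptosis regulators reached 2, and Casp8ap2, the most abundant, stood at 73.7, 101 and 88.0 TPM.

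Among transcripts with at least 1 TPM in Young oocytes several of the largest ratios were those of single variants. A predicted variant of Elmod2, a regulator of Arf GTPases, had a ratio of 22.6, at 3.95 (Young), 89.2 (Aged) and 56.9 TPM (Aged_sec), while its curated mRNA stood at 76.4, 102 and 90.5 TPM. A predicted variant of Brcc3, a deubiquitinase of the BRCA1 complex, stood at 7.92, 105 and 60.7 TPM. The Jak2 mRNA compared, coding for a cytokine receptor kinase, stood at 3.20, 35.8 and 5.52 TPM, and one Dstyk mRNA at 2.27, 42.0 and 24.1 TPM. For the predicted Elmod2 and Brcc3 variants and the Dstyk mRNA the Aged_sec value lay between Young and Aged, and for Jak2 it was close to Young. Of those under 1 TPM in Young oocytes, Foxj3, a forkhead transcription factor, stood at 0.13 and 10.2 TPM.

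Transcripts of 1 gene differed widely from each other in a minority of genes, and those named below are among the widest. In 295 genes at least 2 transcripts were compared, later copies aside, and the highest ratio within a gene was a median of 1.21 times the lowest. It was at least 2 times the lowest in 36 genes. Of the 295 genes, 85 had transcripts both at or above and below a ratio of 2, 27 had all of them at 2 or more, and 183 had none. In Cops4, a subunit of the COP9 signalosome, a variant stood at 2.97 (Young) and 15.9 TPM (Aged), beside a main mRNA at 33.9 and 45.9 TPM. In Rictor, a subunit of mTOR complex 2, a variant stood at 1.29 and 10.9 TPM beside 12.9 and 17.9 TPM. In Glmn, glomulin, the mRNAs stood at 2.29 and 14.6 TPM and at 9.33 and 13 TPM. A transcript that was the most abundant listed one of its gene had a ratio of 2 or more in 16.9% of 1786 cases, and any other transcript in 30.5% of 400. A minor transcript mostly enters the comparison through an Aged value of 10 TPM or more, which favours a high ratio, so these shares cannot be compared directly. Of the 366 genes with a transcript at 2 or more, 299 also had a ratio of at least 2 after the listed transcripts were added, and 67 did not. For a gene with 1 listed transcript that outcome was fixed, since the sum is that transcript. Transcripts outside the table, left out by its selection, are missing from the sums, so the 299 are no separate check at the level of the gene.

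The excess grew with the number of mRNAs annotated for a gene. For genes with a single annotated mRNA the median ratio was 1.41 and 11.8% of 380 transcripts reached 2. With 7 or more mRNAs the median was 1.59 and 23.4% of 542 reached 2. Curated transcripts had a median of 1.44 (15.9% of 1499 at 2 or more), predicted ones 1.61 (27% of 615) and later copies 1.58 (27.8% of 72). These classes also differ in level: the median Young value was 25.8 TPM for genes with 1 mRNA and 12.4 TPM for those with 7 or more, and the part of level in the difference was not tested. Length made little difference among the 1384 curated transcripts with a GENCODE length, with medians of 1.43 up to 2000 bases, 1.42 from there to 3495 bases and 1.46 above that.

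Transcripts of genes with a single annotated mRNA and no listed later copy have no other listed mRNA of their gene to share reads with. Some have close paralogs, and a later copy outside the table would not be seen. Of these 344 transcripts 39 reached 2 (11.3%), and the median was 1.41. They were named after their values were seen. Atad2, a bromodomain ATPase, stood at 0.01 TPM in both Young and Aged_sec and at 15.4 TPM in Aged oocytes. Rmi2, a subunit of the BLM helicase complex, stood at 4.2 (Young), 19.2 (Aged) and 15.9 TPM (Aged_sec). Churc1 stood at 69.3, 158 and 169 TPM. Teddm1b stood at 16.3, 43.6 and 49.8 TPM, and Chrna1, a subunit of the acetylcholine receptor, at 18.5, 42.6 and 46.5 TPM. In the last 3 the Aged_sec value was at or above Aged, while Rmi2 lay between Young and Aged, nearer to Aged. The most abundant of the 39 was Nlrp4f.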

How the data were processed

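RNA of 3 pools of mouse metaphase II oocytes (Young, Aged, Aged_sec) was made into SMART-Seq2 cDNA, built into libraries with a transposon and sequenced on the DNBSEQ platform, per the labels and design text. The authors deposited TPM per RefSeq transcript, per the file headers, in a table named as raw counts. The authors also deposited the ratio of Aged over Young, which equals the quotient of the TPM columns and is 1.2 or more in all rows. Aligner, quantification program and build: not given in the sources used here. Depth is unknown from TPM, so no counting interval was given.

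Transcripts with at least 10 TPM in Young or Aged were kept, and ratios were computed from TPM with nothing added. A ratio of at least 2 was called. With 1 library per group no test was run. Of the 2186 transcripts 2144 (98.1%) matched RefSeq of GRCm38.p6, used for names, numbers of mRNAs per gene and gene order. Gene families are symbol patterns and named genes. Named by rule were, over all transcripts, those with the largest ratios and differences, the smallest ratios at 100 TPM or more and the largest spread within a gene, and, per family, the largest and smallest ratio, highest level and largest difference (provisional symbols excluded). Not all of these are printed, and other members were picked as examples with their values known. The transcripts and lists were chosen with earlier results of these data known. Summaries were checked on simulated data with Python 3.11.15 and pandas 2.3.3. Alternatives are given at the end. A member of the signalling list is not reported here.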

Additional observations from a re-analysis of the deposited data

How the results depend on the processing

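With 424 transcripts at a ratio of 2 or more as reported, the count was 3408 of 9126 with no minimum, 1848 of 6052 at a minimum of 1 TPM, 228 of 1363 at 20 TPM and 43 of 367 at 100 TPM. It was 238 of 1499 with curated accessions only, and 110 when Aged values were divided by the median ratio, a shift of every ratio by 0.57 on the log2 scale. A mean of 10 TPM, 0.5 or 1 TPM added, later copies left out, sums by gene and 1 transcript per gene gave 299 to 404. The median ratio of 1.48 was 1.71 with no minimum, 1.62 at 1 TPM, 1.46 at 20 TPM and 1.40 at 100 TPM. It was 1.46 with a mean of 10 TPM, 1.46 with 1 TPM added, 1.44 with curated accessions, 1.51 with sums by gene and 1.46 with 1 transcript per gene. The summed difference was 72617 TPM with curated accessions and 87143 TPM without later copies. Genes whose transcripts differed by 2 times or more numbered 36, but 12 at 20 TPM and 12 with curated accessions. The share of Nlrp transcripts at 2 or more was above that of all transcripts in 11 of 11 alternatives (45.5% to 70%), and that of Zfp transcripts in 10 of 10 that left 3 or more (34% to 46.9%). Of 381 family counts under the alternatives 146 differed by more than 1.5 times from those reported. No paired analysis was possible because each group has 1 library. Precision is limited by that, and by the unknown depth.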
